A study of Danio rerio with 2 samples.

Results

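The genes described here are 10 transcription factors that specify the neural crest in zebrafish: the SoxE genes sox10 and sox9b, the forkhead gene foxd3, the AP-2 genes tfap2a, tfap2c and tfap2e, the Snail genes snai1b and snai2, and the Twist genes twist1a and twist1b. They were chosen by name, and each name was found at exactly 1 of the 34728 loci of the deposited expression table. RNA came from whole zebrafish embryos at 32 hours post fertilisation, raised at 28 °C, with 1 library of wild-type siblings and 1 library of supt16h-/- mutants from a forward genetic screen. The mutated gene encodes a subunit of FACT, a histone chaperone that opens and rebuilds nucleosomes ahead of and behind polymerases. The sources used here give neither the number of embryos per library nor the allele.

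The neural crest arises at the border of the neural plate, leaves the dorsal neural tube and gives rise to pigment cells, peripheral neurons and glia, and much of the skeleton of the head. Signals at the border switch on a first tier of factors (Pax3/7, Msx, Zic), which in turn switch on the specifiers treated here. The specifiers keep crest cells multipotent, let them leave the epithelium, and later direct them to separate fates. Most of these factors also work elsewhere in the embryo: SoxE factors in the ear, in cartilage and in glial progenitors of the brain, AP-2 factors in epidermis and neurons, and Twist factors in mesoderm.

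With 1 library per genotype there was no replicate error and no test between genotypes, so every difference below describes these libraries. In whole embryos, fewer cells of a type and less RNA per cell cannot be told apart. Levels are given as FPKM, fragments per kilobase of transcript, scaled to the mapped fragments of the library, as deposited. Differences are log2(mutant FPKM + 1) minus log2(sibling FPKM + 1), which understates the change of low genes. Counts at 2-fold use this scale, so a low gene can differ by over 2-fold in FPKM and not be counted. A locus with a mean of at least 1 FPKM is called measured, which 20638 loci were. Steps among values below 1 FPKM put the ratio of library scaling, mutant over sibling, at 1.53. It was taken as the ratio of depths, and the absolute depths were not recovered. As a check of the labels, supt16h itself was at 44.4 FPKM in siblings and 2.98 FPKM in mutants.

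All 10 specifier genes were measured. Of them, sox9b and tfap2e stood at least 2-fold lower in mutants and none was at least 2-fold higher. Over all measured loci, 8.36% were at least 2-fold lower and 6.75% at least 2-fold higher, and among the 11338 loci within the specifiers' range of mean level (4.14 to 31.9 FPKM) the shares were 9.85% and 6.84%. The other 8 specifiers differed by between -0.67 and 0.37 on the log2 scale. The median of the 10 genes was -0.38, beside 0.00120 over all measured loci, and 7 genes stood below 0 and 3 above. Summed over the 10 genes, the level was 181 FPKM in siblings and 115 FPKM in mutants. Of the difference of 66.6 FPKM, sox9b alone made up 53.1%. Without sox9b and tfap2e the sums were 121 and 101 FPKM.

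**Figure D1:**
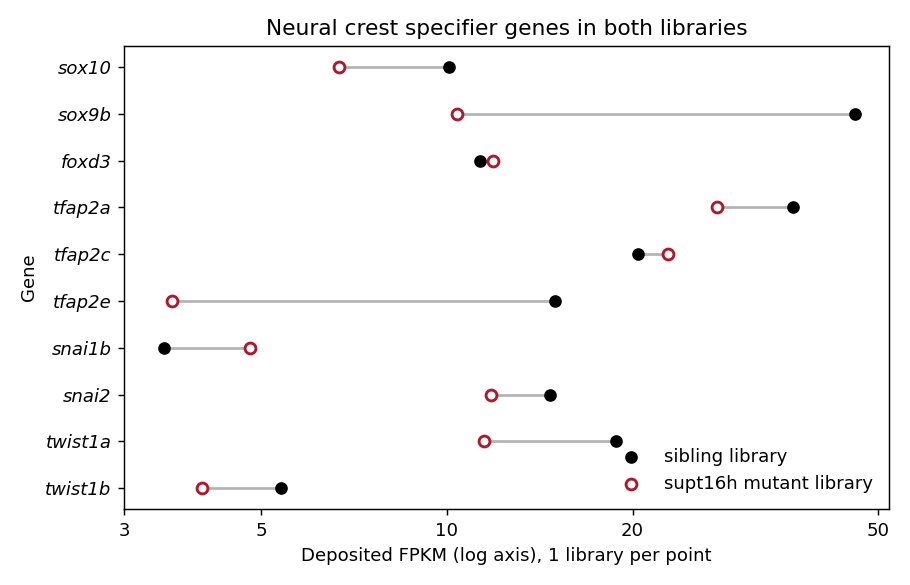
Deposited FPKM of the 10 neural crest specifier genes on a log axis, with a filled point for the sibling library and an open point for the mutant library (1 library each, no error bars). The points of sox9b (45.8 and 10.4 FPKM) and tfap2e (15.0 and 3.58 FPKM) are far apart, and those of foxd3 (11.3 and 11.9 FPKM) nearly coincide.

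Among the SoxE genes, sox9b had the highest level of all 10 specifiers in the sibling library. This factor acts in crest that forms cartilage and is also used by glial progenitors of the brain and retina. Its level was 45.8 FPKM in siblings and 10.4 FPKM in mutants, 4.42-fold lower, which moved it from rank 1 to rank 6 of the 10. The difference of -2.04 was matched or passed downward by 1.66% of measured loci. The authors' deposited table gives sox9b a log2 change of -2.14, with a standard error of 0.77 implied by its statistic and q = 0.302, so the gene was not called there.

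The second SoxE specifier, sox10, is needed for pigment cells, peripheral glia and enteric neurons, and is also active in the ear. It was at 10.1 FPKM in siblings and 6.68 FPKM in mutants, a level 34.2% lower. The authors' deposited table gives it a log2 change of -0.60 with an implied standard error of 0.60. The cartilage factor sox9a, the duplicate of sox9b, stood at 17.1 and 14.2 FPKM in sibling and mutant. The other SoxE locus, sox8 (matched to sox8b), was below the limit for measured loci at 1.37 and 0.553 FPKM.

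Summed over the 3 measured SoxE genes, the level was 73.0 FPKM in siblings and 31.2 FPKM in mutants. Without sox9b the sums were 27.2 and 20.9 FPKM. The share of sox9b in the SoxE sum was 62.7% in the sibling library and 33.2% in the mutant library, where sox9a held the largest share at 45.4%. The log2 changes of sox9b and sox10 in the authors' deposited table differ by -1.54, with a 95% interval of -3.44 to 0.36 from their implied standard errors. For sox9b against sox9a in the authors' deposited table the difference is -1.87, with an interval of -3.98 to 0.23. Both intervals include 0, so a separate behaviour of sox9b within its family was not resolved in these libraries.

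The AP-2 genes held the other specifier that was at least 2-fold lower. With tfap2a, tfap2e takes part in the development of melanophores, and AP-2 genes are also active in the brain. Its level was 15.0 FPKM in siblings and 3.58 FPKM in mutants, a 4.2-fold lower level, and it moved from rank 5 to rank 10 of the 10 specifiers. The difference was -1.81, which 2.27% of measured loci matched or passed downward. The authors' deposited table gives tfap2e a log2 change of -2.07 with an implied standard error of 0.67, p = 0.0019 and q = 0.177, the lowest q of the 10 genes, and does not call it.

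The AP-2 genes that act early and together in crest induction, tfap2a and tfap2c, did not differ by 2-fold at the stage sampled. Whether their levels differed during crest induction was not tested. The gene tfap2a, which is also an epidermal regulator, was at 36.4 FPKM in siblings and 27.4 FPKM in mutants, 24.9% lower. It ranked second among the specifiers in the sibling library and first in the mutant library. The level of tfap2c was 20.4 FPKM in siblings and 22.8 FPKM in mutants. In the authors' deposited table the log2 changes of tfap2e and tfap2c differ by -2.23, with a 95% interval of -4.27 to -0.20 from their implied standard errors. That interval rests on the authors' model of 1 library against 1 library, is 1 of 8 pairs computed without adjustment, and says nothing of the genotypes. Against tfap2a the difference in the authors' deposited table is -1.66, with an interval of -3.56 to 0.25.

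The AP-2 genes outside the specifier set were both at least 2-fold lower. The gene tfap2b stood at 10.2 and 3.95 FPKM in sibling and mutant, and tfap2d at 4.73 and 0.944 FPKM. They are neighbours on chromosome 20, with a gap of 10844 bp between their loci. In the authors' deposited table their log2 changes are -1.36 for tfap2b (implied standard error 0.71) and -2.33 for tfap2d (implied standard error 0.81), and neither is called. Of the 5 AP-2 genes, 3 were at least 2-fold lower (tfap2b, tfap2d and tfap2e) and 2 were not, beside 8.36% of all measured loci. The interval of tfap2e against tfap2c lay below 0, but that against tfap2a included 0. A split of the family was therefore not resolved in these libraries. Summed over the 5 genes the level was 86.8 FPKM in siblings and 58.6 FPKM in mutants. Of that sum, tfap2a held 42.0% in siblings and 46.6% in mutants, and tfap2c held 23.5% and 38.9%.

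**Figure D2:**
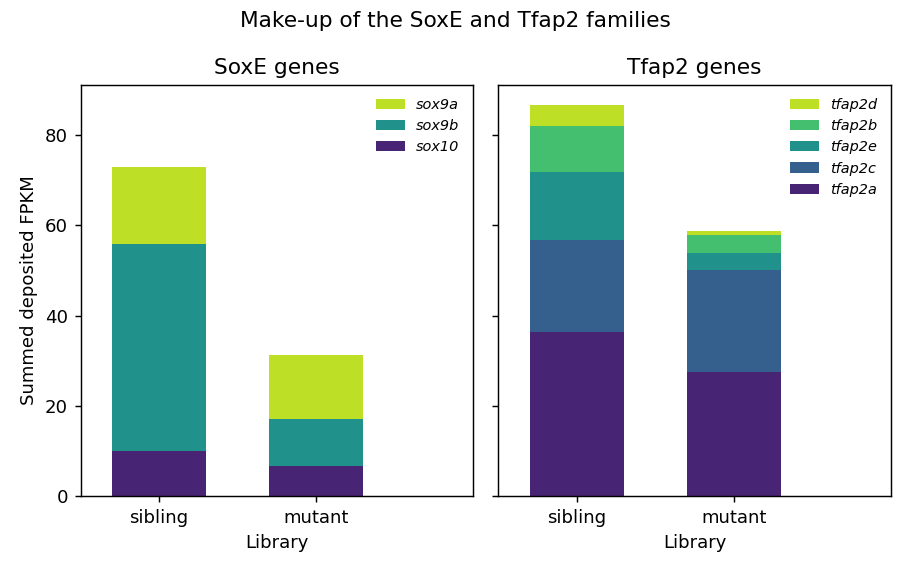
Stacked bars of deposited FPKM for the measured SoxE genes (left) and AP-2 genes (right), 1 library per bar. The SoxE bar goes from 73.0 to 31.2 FPKM mainly through sox9b, and the AP-2 bar from 86.8 to 58.6 FPKM with tfap2a and tfap2c making up most of what is left in the mutant library.

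The forkhead repressor foxd3, which keeps crest cells undifferentiated and is also active in the floor plate and somites, was the specifier with the smallest difference. Its level was 11.3 FPKM in siblings and 11.9 FPKM in mutants. The difference of 0.08 became -0.01 when both libraries were rescaled to the same total, so it has no direction here. The interval implied by the authors' deposited table runs from -1.08 to 1.25 on the log2 scale, and a difference of 2-fold in either direction lies inside it. Among other FoxD genes, foxd1 stood at 26.3 and 23.0 FPKM in sibling and mutant, foxd2 at 8.48 and 7.13 FPKM, foxd5 at 1.55 and 3.84 FPKM, and foxd7 (listed under an older name) at 3.42 and 4.55 FPKM. None of these 5 genes passed 2-fold on the log2 scale with 1 FPKM added, and their sum was 51.0 FPKM in siblings and 50.4 FPKM in mutants.

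The Snail factors are zinc finger repressors that silence epithelial genes such as cadherins when crest cells leave the neural tube. The level of snai2 was 14.7 FPKM in siblings and 11.8 FPKM in mutants. The level of snai1b, the lowest of the specifiers in the sibling library, was 3.48 FPKM in siblings and 4.80 FPKM in mutants. At 0.37, snai1b had the highest log2 difference of the 10. The other Snail genes were close in both libraries, with snai1a at 7.42 and 6.53 FPKM and snai3 at 1.09 and 1.43 FPKM. In the authors' deposited table the changes of snai1b and snai2 differ by 0.78, with an interval of -1.01 to 2.57, so opposite directions of the Snail genes were not resolved.

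The Twist factors are basic helix-loop-helix proteins of head mesenchyme and sclerotome. The level of twist1a was 18.8 FPKM in siblings and 11.5 FPKM in mutants, 38.9% lower, the largest difference (-0.67) among the specifiers that stayed under 2-fold. The level of twist1b was 5.39 FPKM in siblings and 4.01 FPKM in mutants. A further locus, named TWIST1 (2 of 2) in the table and looked up after the values were seen, lies 65128 bp from twist1b and has a length of 1595 bp beside 1607 bp. It stood at 2.69 and 2.21 FPKM, and how reads were divided between these loci is uncertain. Their summed level was 8.08 FPKM in siblings and 6.22 FPKM in mutants. Of the remaining Twist genes, twist3 stood at 5.94 and 2.73 FPKM and twist2 at 2.25 and 1.82 FPKM. All 4 named Twist genes were lower in the mutant library, and none reached 2-fold with 1 FPKM added (-0.90 for twist3).

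**Figure D3:**
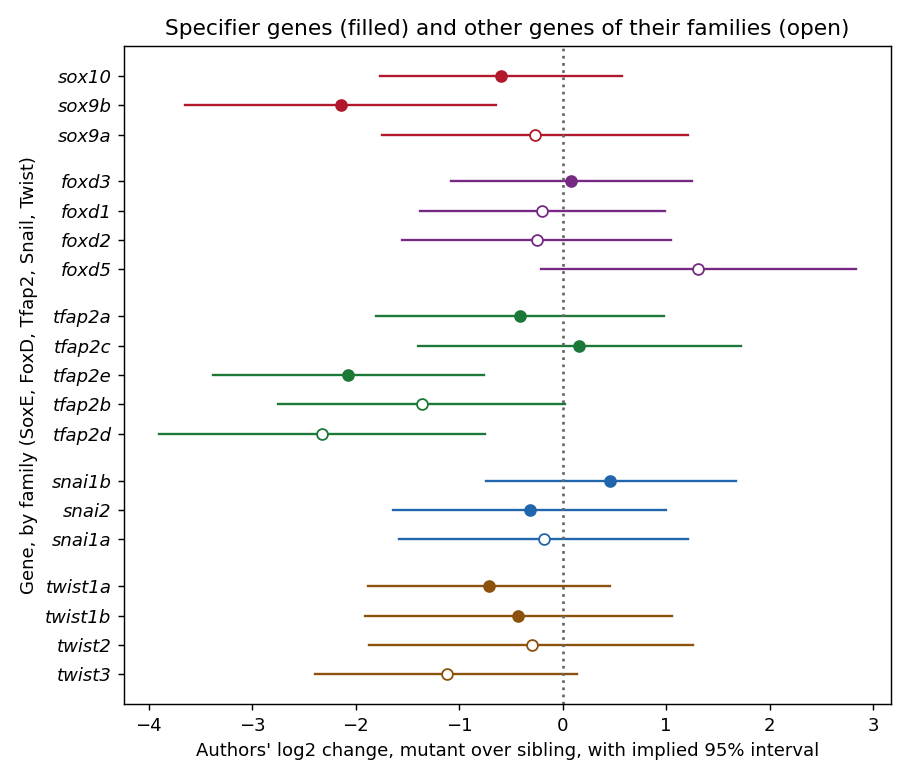
Log2 change of mutant over sibling in the authors' deposited table for the specifier genes (filled) and other genes of their families (open), with 95% intervals from the standard error implied by the authors' statistic. The intervals of sox9b, tfap2e and tfap2d lie below 0, and those of the other 8 specifiers span it; foxd7, whose implied error is far larger, snai3 and sox8, which the authors did not test, are not drawn.

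None of the 10 specifiers was called in the authors' deposited table, where 94 of 20044 tested loci (0.469%) are called. The implied intervals lay below 0 for 2 specifiers and above 0 for none, beside 4.63% and 3.51% of tested loci. The implied standard errors of the specifiers ran from 0.59 to 0.80, around the median of 0.74 over tested loci. A change of 2-fold in a single specifier therefore lay within the 95% interval of the authors' model, and somewhat larger changes could too. For tfap2b, outside the specifier set, the log2 change of -1.36 has an interval of -2.75 to 0.02.

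**Figure D4:**
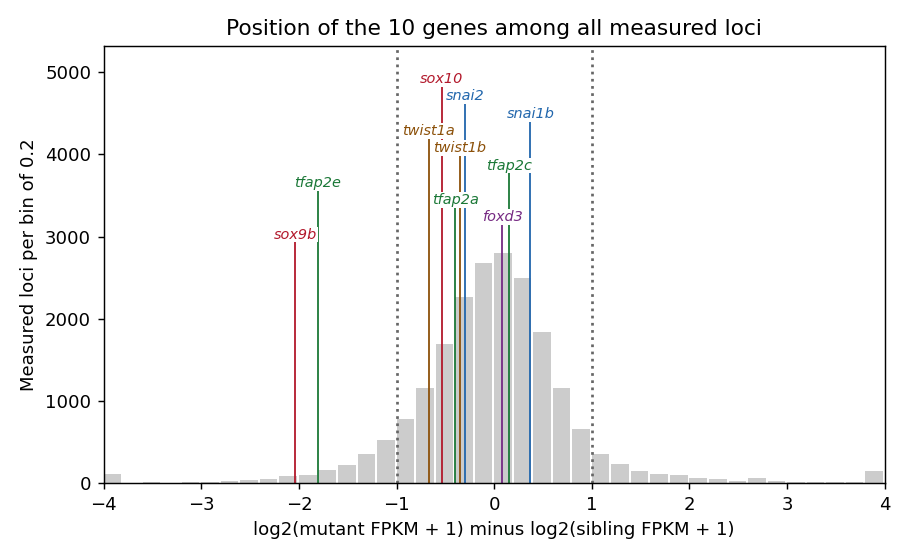
Histogram of the log2 difference over all 20638 measured loci, in bins of 0.2 with values beyond 4 placed in the end bins, and lines for the 10 specifier genes coloured by family. Dotted lines mark a 2-fold difference; sox9b (-2.04) and tfap2e (-1.81) lie beyond the lower one and the other 8 genes lie between them.

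By position, the specifiers formed no single cluster in the Zv9 build. The locus of sox10 lies on chromosome 3 from 2551636 to 2560717, and that of sox9b on the same chromosome from 63177838 to 63184464. The locus of tfap2e lies on chromosome 19 from 49337620 to 49359206, and twist1a on chromosome 19 from 2456982 to 2459008. On chromosome 24 lie tfap2a (8521274 to 8532116) and snai2 (36882658 to 36888674), and on chromosome 6 foxd3 (31784202 to 31786000) and tfap2c (56113376 to 56151237). The gene twist1b lies on chromosome 16 from 21820281 to 21821887, and snai1b on chromosome 23 from 2518666 to 2527047.

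No other locus of the table overlapped a specifier, so no read sharing between overlapping loci applied to them. Within 50 kb of the 10 genes lay 20 other loci, of which 17 were measured. None of the 17 was at least 2-fold lower, and 2 were at least 2-fold higher, beside 8.36% and 6.75% over all measured loci. Both lie near tfap2e: the small RNA locus SNORD94, which had no signal listed in siblings and 29.0 FPKM in mutants, and hm:zewp0073 (407 and 948 FPKM). Closest to tfap2e among named protein-coding genes were RRM2 (1 of 2), a ribonucleotide reductase subunit (569 and 359 FPKM), and psmb2, a proteasome subunit (229 and 349 FPKM). Next to sox10, polr2f, a subunit of RNA polymerases, stood at 91.7 and 120 FPKM. These neighbours were named after their values were seen.

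The deposited variant table, which lists homozygous sites and does not name a library, held 7514 distinct sites. It held 1 site in a specifier gene, a synonymous change at codon 107 of snai1b at position 2522609 of chromosome 23. This site had a coverage of 6 reads and a quality score of 125, beside a median coverage of 4 reads over all sites. The other 9 specifiers had no listed site, which at this coverage does not show that they carried none.

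The tiers around the specifiers were described with gene lists, only at the stage sampled. Among 22 measured genes listed for the neural plate border, 5 were at least 2-fold lower and 0 higher, beside 8.36% and 6.75% over all measured loci. The median was -0.32, with 14 genes below 0 and 8 above. The border factor pax3a was at 14.4 FPKM in siblings and 2.30 FPKM in mutants. The related pax7a (8.53 and 2.08 FPKM) and pax7b (12.0 and 4.36 FPKM), which are also active in the neural tube and somites, and the Hes-type factor hes6 (134 and 46.3 FPKM) were lower too. Among those above 0, named after their values were seen, were prdm1a (3.60 and 5.95 FPKM), gbx2 (3.55 and 5.42 FPKM) and dlx3b (13.9 and 20.7 FPKM). The 16 measured further crest regulators had a median of -0.42, with 2 at least 2-fold lower and 0 higher, beside the same shares. Those lower were the helix-loop-helix inhibitor id1 (506 and 217 FPKM) and tfap4 (30.7 and 14.4 FPKM). The nuclear receptor nr2f1a (114 and 59.4 FPKM) and kctd15a, an inhibitor of AP-2 activity (7.60 and 4.25 FPKM), were lower by less than 2-fold. The 4 regulators above 0 were lmo4a (0.51), mycb (0.44), id2a (0.35) and id3 (0.18), named after their values were seen. No gene of either list was called in the authors' deposited table.

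Genes of migrating crest had a median of -0.49 over 16 measured loci, with 14 below 0 and 2 above. Of these loci, 5 were at least 2-fold lower and 0 higher, beside 8.36% and 6.75% over all measured loci. Those above 0, named after their values were seen, were cxcr4a (6.91 and 8.29 FPKM) and ednrab (3.16 and 3.21 FPKM). Both loci of pdgfra are among the 5. The growth factor receptor pdgfra, which guides crest to the face, stood at 21.7 and 4.60 FPKM at the first of its loci and at 3.81 and 1.34 FPKM at the second. The cadherins cdh11 (21.5 and 4.77 FPKM), cdh2 (88.6 and 32.5 FPKM) and cdh6 (18.1 and 6.74 FPKM) were all at least 2-fold lower, and cdh2 is also the main cadherin of the neural tube. Among 19 measured genes listed for ectomesenchyme, the crest of the head skeleton, 8 were at least 2-fold lower and 0 higher, beside the same shares. The median was -0.41, with 14 genes below 0 and 5 above. Those above 0, named after their values were seen, included col2a1a (168 and 220 FPKM) and nkx3.2 (3.91 and 5.19 FPKM). The homeobox genes of facial mesenchyme alx1 (5.08 and 1.04 FPKM), alx4a (4.58 and 1.03 FPKM), barx1 (5.28 and 1.40 FPKM) and prrx1b (11.9 and 4.21 FPKM) had the largest differences of that list, all lower. Also at least 2-fold lower, and named after their values were seen, were dlx2a (20.4 and 8.39 FPKM), meis2b (45.1 and 19.3 FPKM), fli1a (12.4 and 5.20 FPKM) and prrx1a (20.7 and 9.40 FPKM). The part of other tissues of the whole embryo in the levels of that list was not tested.

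The pigment lineage had a median of -0.38, with 3 of 21 measured loci at least 2-fold lower (8.36% over all measured loci) and 0 higher, and with 17 below 0 and 4 above. Those at least 2-fold lower were trpm1b, a channel of melanophores (14.4 and 5.91 FPKM), tfec, a factor of the Mitf family (2.71 and 0.750 FPKM), and pmelb, a melanosome matrix protein (27.6 and 13.3 FPKM). The iridophore enzyme pnp4a stood at 11 and 5.0 FPKM. Its difference of -0.99 fell just short of 2-fold, while pmelb lay at the cut with -1.0, so the count depends on the cut. The melanophore factor mitfa, a direct target of sox10 and named after its value was seen, stood at 7.65 and 5.20 FPKM. Loci above 0, also named after their values were seen, included trpm1a (0.548 and 1.57 FPKM) and slc24a5, a melanosome exchanger (2.76 and 4.26 FPKM). The gene gch2 has separate entries at the same position, both counted as loci. They stood at 266 and 204 FPKM (below 0) and at 14.7 and 21.1 FPKM (above 0). The list of crest glia and neurons had 5 of 11 measured loci at least 2-fold lower (8.36% over all measured loci) and 0 higher. It had 8 loci below 0 and 3 above, and its median was -0.97. Its largest difference was plp1a, a myelin proteolipid, at 117 and 7.78 FPKM, which is called lower in the authors' deposited table (q = 1.16e-06). The others were phox2a of autonomic neurons (3.61 and 0.724 FPKM) and the proneural genes neurog1 (35.2 and 12.6 FPKM) and ascl1a (25.7 and 9.06 FPKM), which are active in the brain as well, and phox2bb, named after its value was seen (9.57 and 3.30 FPKM). The authors' deposited table gives phox2a an implied standard error of 9.94, so its direction was not resolved there. Loci above 0, named after their values were seen, were gfra1b (1.41 and 1.88 FPKM), hand2 (5.05 and 5.78 FPKM) and gap43 (27.2 and 28.0 FPKM). Of that list, 8 loci were below the limit for measured loci, and the myelin gene mbpa was listed at 0 in both libraries. These are levels of whole embryos, and the part of crest cells in the lower levels of this list, plp1a included, was not tested.

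**Figure D5:**
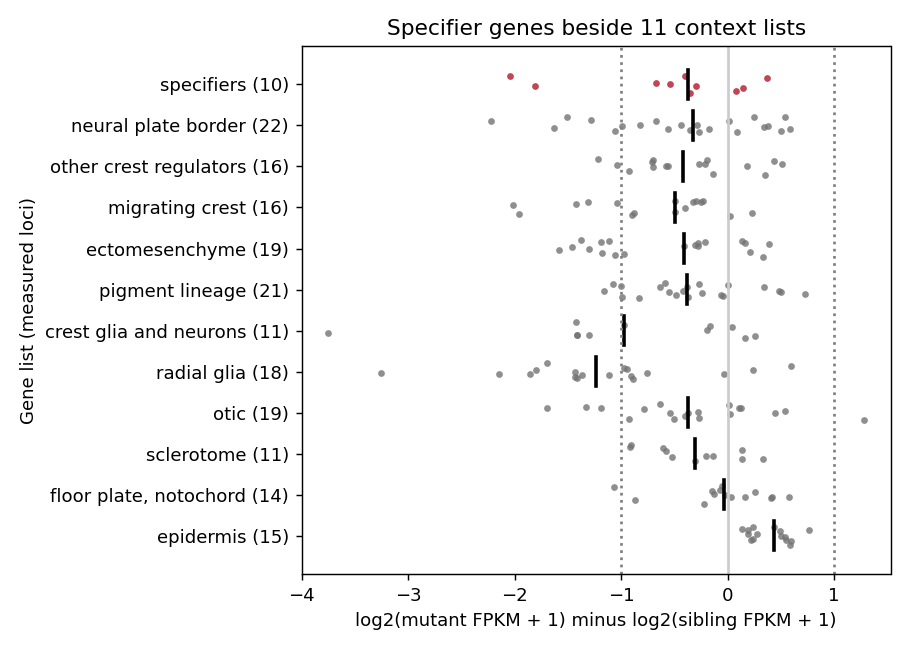
Log2 difference of every measured locus in the specifier set (red) and in 11 context lists (grey), with a black bar at each median and the number of measured loci in parentheses. Dotted lines mark a 2-fold difference; the radial glia list has the lowest median (-1.24) and the epidermis list the highest (0.44), with the specifiers at -0.38.

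Lists of other tissues that use the same factors had medians from -1.24 to 0.44. Of 18 measured markers of radial glia, the progenitors of the brain that express sox9b, 10 were at least 2-fold lower and 0 higher, with a median of -1.24. The shares over all measured loci were 8.36% lower and 6.75% higher. These markers were lower mostly, not all. Their summed level was 2163 FPKM in siblings and 1080 FPKM in mutants, and none was listed at 0. The Notch target her4.2 (53.4 and 4.67 FPKM) is called lower in the authors' deposited table (q = 5.21e-05), though its reads may be shared with near-identical her4 copies. The receptor notch3 (122 and 26.8 FPKM), the glial filament gene gfap (135 and 36.5 FPKM) and msi1, an RNA-binding protein of progenitors (130 and 36.8 FPKM), were lower and not called. The 2 markers above 0, named after their values were seen, were glulb (193 and 293 FPKM) and glula (30.3 and 36.0 FPKM). The part of radial glia in the lower level of sox9b was not tested.

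Epidermal genes, a second site of tfap2a and tfap2c, stood on the other side. Of 15 measured markers, 0 were at least 2-fold lower and 0 higher, beside 8.36% and 6.75% over all measured loci. All 15 markers were above 0, with a median of 0.44, and none was listed at 0. Their summed level was 13442 FPKM in siblings and 19165 FPKM in mutants. The cytolinker ppl (25.5 and 44.2 FPKM), the keratins cyt1l (1727 and 2619 FPKM) and krt8 (228 and 333 FPKM) and the claudin cldne (44.3 and 67.2 FPKM) were highest by difference. Their part in the levels of tfap2a and tfap2c was not tested.

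In the ear, where sox10 and sox9b are active, 3 of 19 measured markers were at least 2-fold lower and 1 higher. Over all measured loci the shares were 8.36% and 6.75%. The ear markers had a median of -0.37. The lower ones were pax2a (20.6 and 5.63 FPKM), pax2b (3.0 and 0.597 FPKM) and hmx3a (6.46 and 2.28 FPKM), which are also expressed in the brain. For pax2a the authors' deposited table implies a standard error of 1.86 and an interval of -5.53 to 1.78, so its direction was not resolved there. The higher one was the otoconial protein oc90 (4.57 and 12.5 FPKM). In sclerotome, the Twist-expressing mesoderm around the notochord, 0 of 11 measured markers passed 2-fold with 1 FPKM added, beside the same shares. The median of the sclerotome markers was -0.31. The largest differences there were those of pax9 (4.77 and 2.04 FPKM), uncx4.1 (9.69 and 4.71 FPKM), col5a1 (82.4 and 53.5 FPKM) and bgnb (4.18 and 2.47 FPKM). In floor plate and notochord the median was -0.04 over 14 measured loci, with 1 at least 2-fold lower and 0 higher, beside the same shares. There ntn1a, an axon guidance ligand, was at least 2-fold lower (10.9 and 4.68 FPKM), while ntn1b (8.95 and 4.43 FPKM), ctgfa (18.7 and 28.3 FPKM) and col8a1a (16.9 and 23.0 FPKM) did not reach 2-fold on that scale. The part of these tissues in the levels of sox10, foxd3, twist1a and twist1b was not tested.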

How the data were processed

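Stranded libraries of polyadenylated RNA (1 µg of total RNA each) were read from both ends for 50 nucleotides, per the labels' protocols. Tools named in the submitters' processing notes, without their roles, are TopHat2 2.1.1, Cufflinks 2.2.1 with Cuffdiff, and CASAVA 1.8, and the build is Zv9. The authors deposited 1 FPKM value per locus and library. Their log2 change, statistic, p-value and q-value columns compare 1 library with 1 library, and are quoted as the authors' deposited table. The standard error was implied as the change divided by its statistic. Per the file headers, SnpEff 3.1k annotated the variants, and their table holds quality scores and read counts (coverage) as the authors deposited them.

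Samples were grouped by their titles. Gene names were matched to the table after splitting at commas, and older names through RefSeq synonyms. Locus starts, which the file counts from 0, were raised by 1, which matched 152 exon starts of the variant table where the unshifted starts matched 0. Counts took in loci with a mean of at least 1 FPKM and without the status FAIL. The summaries were tested on simulated data with Python 3.11.15 and pandas 2.3.3. The shifted loci in that test lay above the levels of the specifiers and were moved by over 2-fold without noise. It therefore checked the arithmetic and not the differences of the specifiers. Depth is known only as a ratio, from 4527 loci below 1 FPKM, of which 7.67% lay within 0.02 (log2) of the commonest step, so no counting intervals are given.

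The members, lists and settings were chosen with earlier results of these data known. Genes named were the 10 specifiers, measured genes of their families, and up to 4 members per list with the largest differences. Other pseudocounts, limits on low values and scalings were tried. Sequences of the genes were not analysed here.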

Additional observations from a re-analysis of the deposited data

How the results depend on the processing

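No paired analysis was possible because each group has 1 library and the labels carry no replicate numbers, and no replicate could be left out. Under 0.1 or 5 FPKM added, no limit on the mean, a mean of at least 5 FPKM, rescaling to equal totals, and centring on loci of at least 10 FPKM, the counts of specifiers past 2-fold were 2 lower and 0 higher each time, and the median of the specifiers ran from -0.47 to -0.29. The limit of 5 FPKM left 8 specifiers. No specifier crossed 2-fold under these settings, and foxd3 alone changed sign, to -0.01 after rescaling. The counts over all loci depended more on the pseudocount, with 2301 lower and 1952 higher for 0.1 FPKM added and 796 and 617 for 5 FPKM added, beside 1725 and 1393. With 5 FPKM added, which shrinks low genes, the list medians moved to -0.28 for crest regulators, -0.33 for migrating crest, -0.23 for ectomesenchyme, -0.23 for the pigment lineage, -0.55 for crest glia and neurons, -0.22 for ear, -0.22 for the neural plate border, -0.20 for sclerotome and -0.90 for radial glia. The other list medians moved by less than 0.1 under that setting, as did all list medians under rescaling. Absolute depth was unknown, and the single library per genotype leaves no measure of variation between embryos.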
